A study of Homo sapiens with 8 samples.

Results

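The genes examined here carried at least 1 m6A peak in Mel624 melanoma cells with the control hairpin and none in cells with the hairpin against FTO. They were chosen by the measured peak lists themselves, as every gene of the shNC list whose RefSeq isoform does not occur in the shFTO list. This gave 603 of 9296 shNC genes (6.49%), called the members here, with 751 of 19072 shNC peaks, out of 10078 genes in either list. Mel624 is an established human melanoma line, grown in DMEM with serum and given no further treatment. The cells were infected with lentivirus for shFTO, a short hairpin RNA against the m6A demethylase FTO, or for shNC, a negative control hairpin, and selected with puromycin, so both groups carried a vector and passed the selection. Each group had 2 replicates and each replicate an m6A-IP and an input library, 8 libraries in all. The labels do not say whether the replicates were separate cultures or whether the infected cells were 1 clone. How far FTO itself was lowered was not analysed here.

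m6A is set on adenosines of mRNA by the METTL3-METTL14 complex, mostly in a short context of which GGACU is the most common form, and it gathers near stop codons, in long exons and in 3′UTRs. FTO and ALKBH5 remove it, and reader proteins such as those of the YTHDF family bind it and affect the stability and translation of the mRNA. In m6A-seq the mRNA is broken up and an antibody against m6A enriches the modified pieces (IP). A peak is a stretch where the IP holds more reads than the input.

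The log2 enrichment score of a peak sets its IP reads against the median window of the same mRNA, and this against the same quotient of the input, so that a score of 1 means a doubling. The lists give a score for each replicate, and the members have scores in the shNC replicates only. No value in shFTO therefore exists for any of them, and no test between shFTO and shNC could be made on a score. A gene is missing from the shFTO list either because no window of it passed the thresholds or because too little of its mRNA was read, which the lists leave unresolved. In bulk RNA, fewer cells with an mRNA and less of it per cell cannot be told apart. The reverse set, genes listed in shFTO and not in shNC, held 782 of 9475 shFTO genes (8.25%) with 975 peaks, and 8693 genes were in both lists.

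Some sequences with GGACU from strong peaks of the members, or with copies of the motif close together, are shown here to make the motif and its surroundings visible. They were read from hg38 in the sense direction of the mRNA, 5′ to 3′ as DNA, with GGACT in capitals, after the motif positions in the list had been matched by their spacing to a GENCODE transcript of the gene. Of 54 members with at least 2 motifs, 52 were placed once in this way, 1 more than once and 1 not at all.
EPHB3: gctGGACTttcGGACTcttGGACTttt
SYTL4: aagtggtGGACTggatGGACTcgactgg
KIF18A: ggacaggaGGACTtGGACTctacattt
RAD52: attGGACTctgtcacaaagGGACTttg
TMC8: tggctGGACTcctggtctGGACTcagca
ATP10B: tatcacaggacaGGACTtcagtgccagca
XYLT1: ggagggatggctGGACTcgttggtgggcg
COL9A1: ttatatcccagtGGACTgcctgaagaata
SMO: ggatgcagactcGGACTtctgagcctgca
NEO1: gcccacctggaaGGACTaatgaaggacct

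The EPHB3 stretch lies in the 3′UTR at chr3:184581674-184581700 on the plus strand and holds 3 copies of GGACT, the last of which starts 16 bases after the first. In SYTL4, at chrX:100676134-100676161 on the minus strand, a pair of copies in the CDS starts 9 bases apart. The pair in the CDS of KIF18A, at chr11:28036303-28036329 on the minus strand, starts 6 bases apart, and that in the 3′UTR of RAD52, at chr12:913345-913371 on the minus strand, 16 bases apart. The pair in the 3′UTR of TMC8 is at chr17:78142385-78142412 on the plus strand. The other lines show a single GGACT with 12 bases on each side in the coding sequence of ATP10B (chr5:160565698-160565726, minus), XYLT1 (chr16:17108841-17108869, minus), COL9A1 (chr6:70294531-70294559, minus), SMO (chr7:129212430-129212458, plus) and NEO1 (chr15:73302646-73302674, plus). A match is a description of the sequence and not a measured m6A site. Such a peak was not typical of the members, since 256 of the 751 peaks (34.1%) held GGACU and 48 (6.39%) held 2 or more. Nor was it typical elsewhere, with shares of 36.4% and 8.50% in genes of both lists and 36.9% and 7.08% in the reverse set.

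The strongest member was KDR, the receptor of VEGF on endothelial cells (chr4:55078481-55125595). Its peak over the stop codon had a log2 score of 5.10 in replicate 1 and 4.97 in replicate 2 (5.03 ± 0.09, SD, n = 2). A further peak in its 3′UTR had 4.80 and 5.11, and a CDS peak had 1.76 and 2.42. The other VEGF receptors, FLT1 and FLT4, were in neither list. Of 6 endothelial markers KDR was the only one in the shNC list, and none was in the shFTO list. PURA, a protein that binds single-stranded DNA and RNA (chr5:140114109-140125619), had 4 peaks that abut each other from nucleotide 275 to nucleotide 1277 of its mRNA, across the CDS and the stop codon into the 3′UTR. Their scores were 4.06 and 4.13, 4.13 and 4.12, 5.13 and 4.87, and 5.26 and 4.47 in replicates 1 and 2. Its paralogue PURB had 8 peaks in each list, the highest with means of 6.67 in shFTO and 6.57 in shNC.

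Among the other 10 of the 12 leading members, 5 had close replicates. These were PPM1H, a protein phosphatase that acts on RAB GTPases, with 4.97 and 4.78 at the stop codon, C8orf37, a gene linked to retinal dystrophy, with 4.98 and 4.73, AUTS2, a chromatin regulator of neurons, with 4.67 and 4.66 in the CDS, and PARD6B and TFAP2C. PARD6B, a scaffold of the cell polarity complex, had 4.39 and 4.60 in the CDS, and TFAP2C, an AP-2 transcription factor, 4.42 and 4.54 at the stop codon. E2F2, a transcription factor that drives entry into S phase, had 5.35 in replicate 1 and 3.99 in replicate 2 at its stop codon. MMS22L, which helps to repair stalled replication forks, had 3.82 and 5.50 in its CDS, the opposite order. ARHGEF3, a guanine nucleotide exchange factor, had 4.93 and 4.39, VANGL2, a planar cell polarity protein, 5.02 and 4.21, and ATP10B, a lipid flippase, 4.76 and 4.17. All of these means lie above 4.4, and the spread between replicates was largest in MMS22L (SD 1.19) and E2F2 (SD 0.97).

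**Figure D1:**
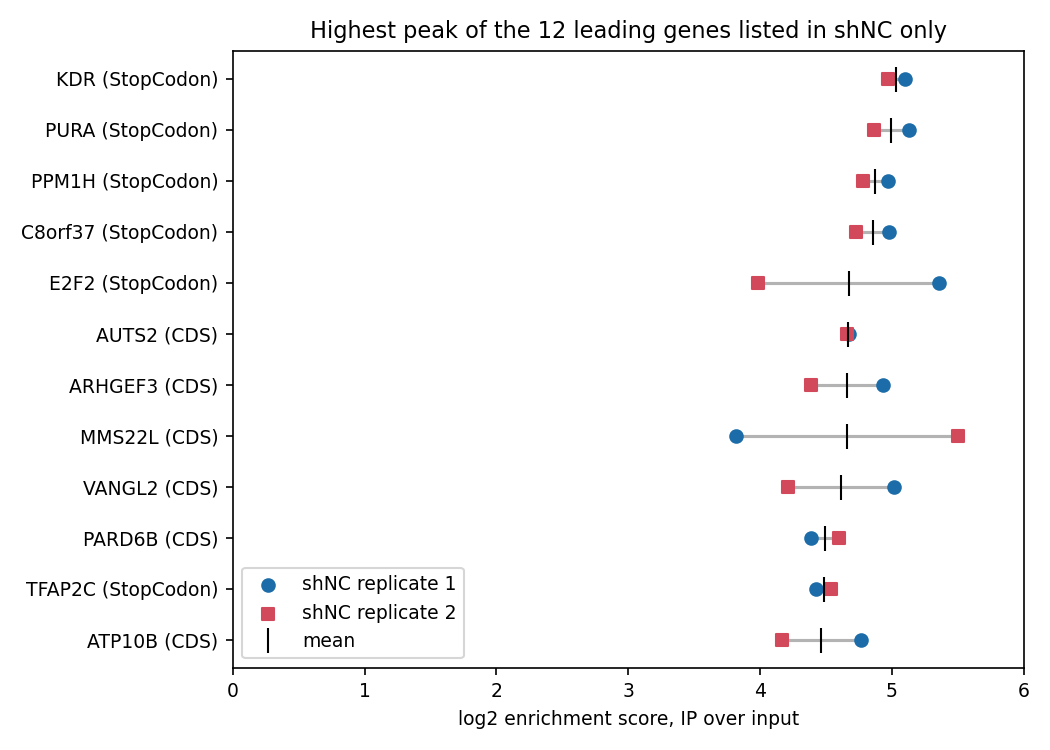
Log2 enrichment scores (IP over input) of the highest peak in each of the 12 leading genes listed in shNC only, with shNC replicate 1 as circles, replicate 2 as squares and their mean as a tick. KDR, PURA, PPM1H, C8orf37, AUTS2, PARD6B and TFAP2C have close replicates, while E2F2 and MMS22L lie apart in opposite directions.

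Some close relatives of the leading members were in both lists. E2F3 had 2 peaks in each list, with highest means of 5.75 in shFTO and 5.36 in shNC, and E2F4 had 1 peak in each, with 3.69 in shFTO and 3.72 in shNC. ATP10D, a flippase related to ATP10B, had highest means of 4.63 in shFTO and 4.70 in shNC. TFAP2A, the AP-2 factor of neural crest and melanocytes, had 3.04 in shFTO and 3.07 in shNC. VANGL1 had 4.34 in shFTO with 3 peaks and 3.23 in shNC with 1 peak. PARD6G, like PARD6B, was among the members, with 3.22 and 3.34 in its highest peak. Other relatives went the opposite way. TFAP2E and FBRSL1, a relative of AUTS2, were in the shFTO list only, with highest means of 3.14 and 2.65. E2F5, E2F7, E2F8, TFAP2B and ATP10A were in neither list. No test was made on these relatives.

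The members as a group had low scores. The median over the 751 peaks was 2.19 (2.22 in replicate 1 and 2.15 in replicate 2), against 2.57 over 18321 shNC peaks of genes in both lists, and 2.20 over the peaks of genes listed in shFTO only. Of the member genes 37 had a highest mean of 4 or more, and 251 (41.6%) had a highest mean below 2, against 19.0% of genes in both lists. These scores belong to the contrast that chose the members and are a description only. At the lower edge, the members with the lowest highest score were CLTA, a clathrin light chain (1.07 and 0.80), MED4, a Mediator subunit (1.08 and 0.80), and PDCD10, a scaffold of the CCM complex (0.93 and 0.96). On the other side of the edge, MTHFD2, a mitochondrial folate enzyme, stayed in both lists through a CDS peak in shFTO with 0.95 and 0.45, and CHD1L, a chromatin remodeller, through one with 1.32 and 0.31.

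How often an shNC gene was missing from the shFTO list went with its highest score and with its number of peaks. In 4 bins of equal size by highest shNC score, from low to high, 12.7%, 7.27%, 4.39% and 1.64% of the genes were missing. By number of shNC peaks the shares were 12.1% of 4019 genes with 1 peak, 3.31% with 2, 0.987% with 3 and 1.56% with 4. None of the 509 genes with more than 4 peaks was missing. These values too are a description of the rule.

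**Figure D2:**
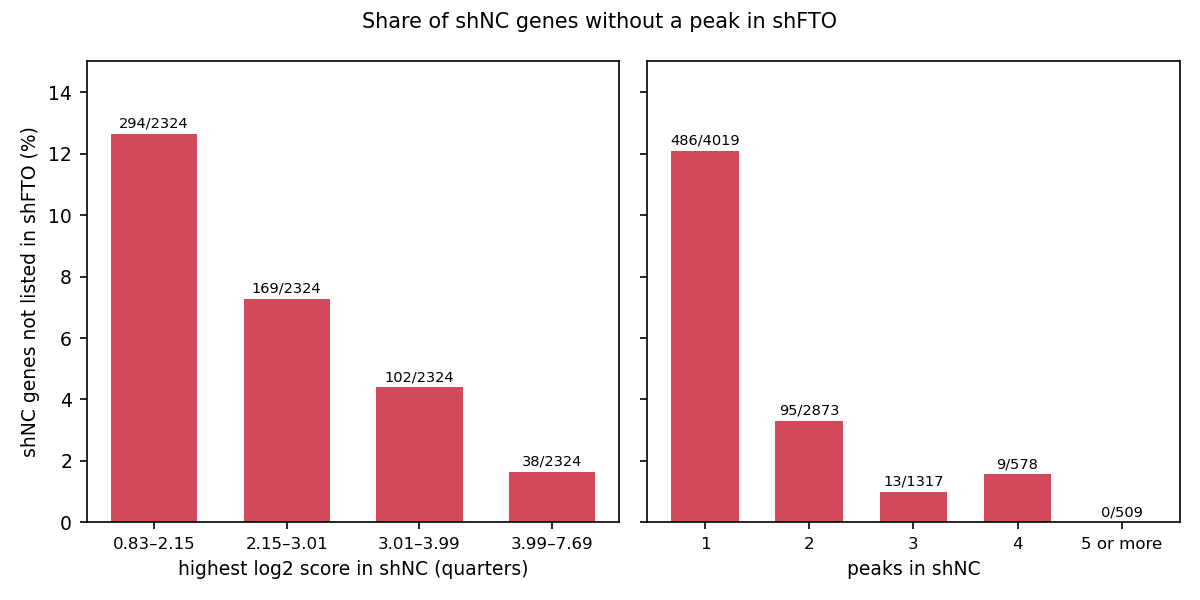
Share of shNC genes that are not in the shFTO list (%), by the highest log2 score of the gene in shNC (left, 4 bins of 2324 genes) and by its number of shNC peaks (right), with genes missing over genes in the bin above each bar. The bars fall to 1.64% in the highest score bin, and none of 509 genes with 5 or more peaks is missing.

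Most members had a single peak. They were 486 of 603 genes (80.6%), against 3533 of 8693 genes in both lists (40.6%), a difference of 40.0 percentage points. The number of peaks bears on whether a gene is listed at all, so this difference is a description of the rule. In the reverse set 82.1% of genes had 1 peak, which leaves a difference of -1.50 points (-5.69 to 2.60). Among the other members 95 had 2 peaks, 13 had 3 and 9 had 4. The 9 were PURA, XYLT1, CYP2U1, BRCA2, SHROOM4, TICRR, ADPRH, VASH1 and STK16. With 1 list per group, all intervals given here reflect counting error alone.

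Where a member had several peaks, they ran through different regions of the mRNA. XYLT1, which starts the sugar chains of proteoglycans, had a CDS peak with 3.69 and 2.89, a stop codon peak of 608 nucleotides with 4.29 and 4.0 that holds the motif shown above, and 3′UTR peaks with 4.90 and 3.72 and with 3.66 and 4.59. CYP2U1, a cytochrome P450 that oxidises fatty acids, had its highest peak in the CDS (3.92 and 4.40). Its 3 further peaks abut from nucleotide 1559 to nucleotide 2125, over the stop codon, and each was higher in replicate 2 (2.20 and 3.60, 3.11 and 3.89, 2.51 and 3.24). BRCA2, a protein of DNA repair by recombination, had 4 peaks in its CDS, the highest with 3.40 and 4.15. They stretch from nucleotide 1712 to nucleotide 10460 of the mRNA. SHROOM4, an actin-binding protein, had 3 CDS peaks and 1 in the 3′UTR, with means from 2.05 to 3.38. VASH1, a tubulin carboxypeptidase that restrains blood vessel growth, ranged from 1.80 to 2.42 and STK16, a Golgi kinase, from 1.56 to 2.11.

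Replicates were compared over the peaks of each set. Pearson's r between replicates was 0.839 over the 751 member peaks, 0.834 over the peaks of the reverse set and 0.902 over the shNC peaks of genes in both lists, across peaks that share libraries. The value of r also depends on the range of scores. Lower and upper quartiles of the mean score were 1.63 and 2.92 in member peaks. They were 1.55 and 2.89 in the reverse set, and 1.83 and 3.52 in genes of both lists. Replicates differed by over 1 in 6.92% of member peaks, 7.69% of peaks of the reverse set and 6.40% of peaks of genes in both lists. Among genes with 1 peak this share was 5.76% in members and 7.93% in genes of both lists. The median absolute difference between replicates was 0.36 in member peaks, 0.34 in the reverse set and 0.33 in peaks of genes in both lists. A score below 1 in at least 1 replicate was found in 48 member peaks (6.39%), against 3.74% of peaks of genes in both lists and 7.59% in the reverse set. Of the 48 member peaks, 41 were below 1 in replicate 2. So were 583 of the 685 such shNC peaks of genes in both lists and 56 of the 74 in the reverse set. The calling threshold used these scores, so the shares are a description only. Scores whose linear value is a multiple of 0.5 within 1e-06 were 2.66% of member peaks in replicate 1 and 2.40% in replicate 2, against 0.71% in replicate 1 and 0.60% in replicate 2 in genes of both lists. In the reverse set they were 1.85% in replicate 1 and 2.46% in replicate 2. The median width was 239 nucleotides in member peaks, 241 in the reverse set and 251 in genes of both lists. The part of read number in these values was not tested, since the lists hold no counts.

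The widest gap between replicates was in SMO, the transducer of Hedgehog signals, whose 3′UTR peak had 4.42 in replicate 1 and 2.22 in replicate 2. Its stop codon peak had 4.23 and 3.99. TRUB1, a pseudouridine synthase, had 1.47 and 3.28 in the CDS. RPAIN, which carries replication protein A into the nucleus, had 3.44 and 1.64 in the 5′UTR. The pseudogene LOC729603 had 4.63 and 2.86, and NFATC2, a transcription factor of T cells, 5.21 and 3.51 in the 3′UTR. In 4 of these 5 peaks replicate 1 was higher. The median of replicate 1 minus replicate 2 was 0.11 over member peaks and 0.12 over shNC peaks of genes in both lists.

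**Figure D3:**
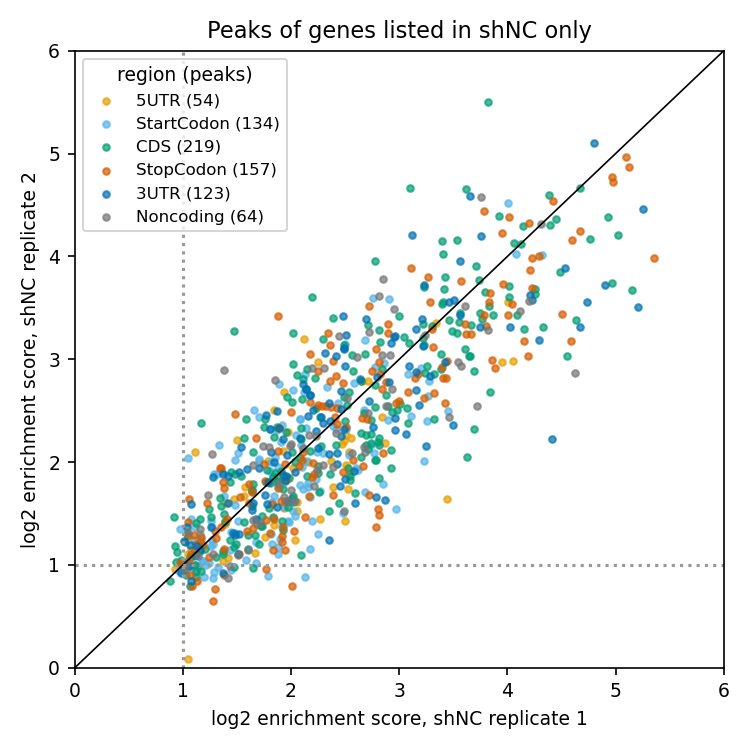
Log2 enrichment scores of the 751 peaks of genes listed in shNC only, replicate 1 on the horizontal and replicate 2 on the vertical axis, with 1 point per peak coloured by region, the line of equal scores and dotted lines at a score of 1. Points crowd between 1 and 3 on both axes, and 48 peaks lie below 1 in a replicate.

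Peaks of the members lay in all 6 regions named in the lists. There were 219 peaks in the CDS (29.2%), 157 at stop codons (20.9%), 134 at start codons (17.8%), 123 in 3′UTRs (16.4%), 64 in noncoding RNAs (8.52%) and 54 in 5′UTRs (7.19%). Median scores were highest in the CDS (2.43), at stop codons (2.40) and in 3′UTRs (2.36), and lowest in 5′UTRs (1.97) and at start codons (1.85). In genes of both lists stop codons led with 2.96, so the distance between the sets was largest there.

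Against genes in both lists, 3′UTR peaks were a smaller share of the member peaks (16.4% of member peaks, 22.0% in genes of both lists, a difference of -5.66 points, -8.20 to -2.78), and so were CDS peaks (29.2% of member peaks, 32.9% in genes of both lists, -3.70 points, -6.91 to -0.28). Both differences turned in sign among genes with 1 peak, where 14.2% of member peaks and 12.3% of the peaks of genes in both lists were in the 3′UTR (1.91 points, -1.12 to 5.45), and the CDS held 24.7% of member peaks and 22.2% of the others (2.53 points, -1.36 to 6.77). Among the same 1-peak genes, members had fewer start codon peaks (22.2% in members, 29.1% in genes of both lists, -6.87 points, -10.7 to -2.70) and fewer stop codon peaks (20.8% in members, 25.5% in genes of both lists, -4.75 points, -8.42 to -0.67). Start and stop codon shares over every peak differed by 1.31 points (-1.32 to 4.26) and 1.59 points (-1.23 to 4.69), with no sign that holds beyond counting error. The differences in region shares thus changed with the number of peaks per gene. Region shares are parts of a whole. The larger noncoding share of the members (8.52%, against 2.72% in genes of both lists) therefore lowers their shares of the other regions. Shares among the peaks of coding mRNAs alone were not computed, so its part in these differences was not tested.

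The 5′UTR share differed by 0.65 points over every peak (-1.03 to 2.75), 1.5 points per gene (-0.39 to 3.90) and 0.87 points among genes with 1 peak (-1.18 to 3.53), within counting error each time. For noncoding peaks the interval left out 0 in all 3 of these counts. They were 8.52% of member peaks and 2.72% of peaks of genes in both lists (5.80 points, 4.0 to 8.03), and among genes with 1 peak they were 11.5% in members and 5.21% in genes of both lists (6.31 points, 3.66 to 9.53). Per gene the difference was 6.46 points (4.28 to 9.14). The reverse set had 10.4%, a difference of -1.84 points (-4.58 to 0.99). Against the reverse set, stop codon peaks were more frequent among the members (20.9% in members, 16.7% in the reverse set, 4.19 points, 0.49 to 7.96). This interval is the lone one of the 6 regions that leaves out 0, and among genes with 1 peak it no longer does (4.27 points, -0.29 to 8.94).

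**Figure D4:**
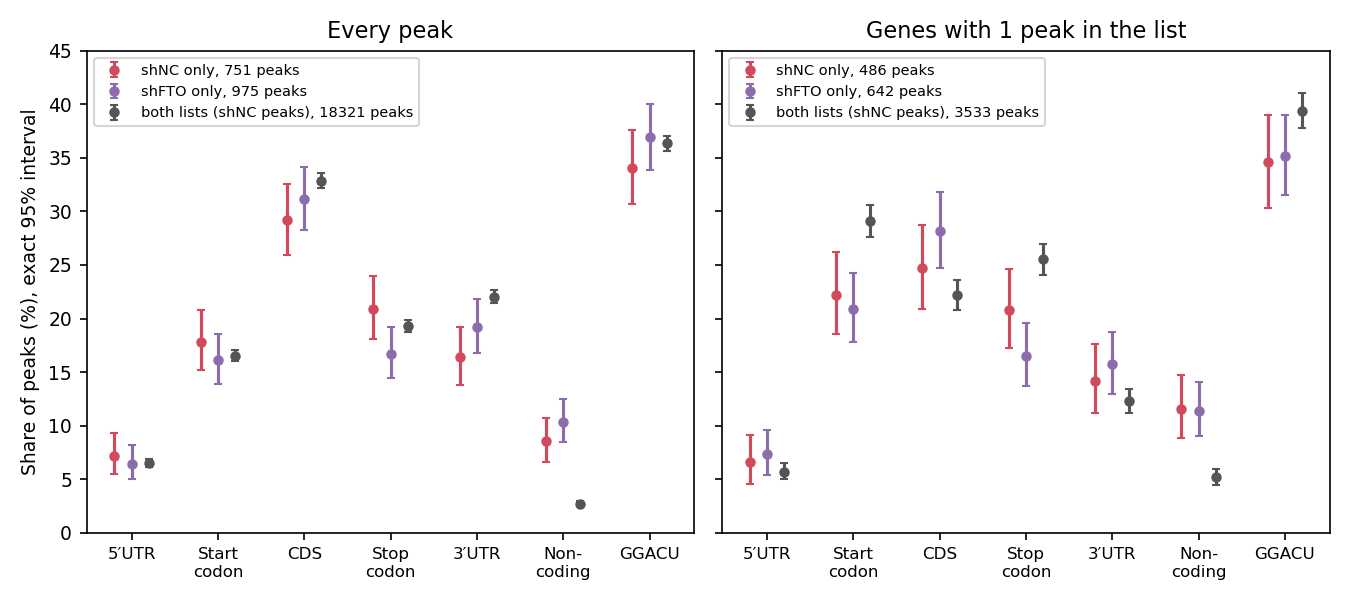
Share of peaks (%) in each region and with at least 1 GGACU, with exact 95% intervals for counting error, for genes listed in shNC only, in shFTO only, and in both lists (shNC peaks), over every peak (left) and over genes with 1 peak in the list (right). The noncoding share of genes in both lists, 2.72%, lies below both other sets, and the 3′UTR order differs between the panels.

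GGACU was in 256 member peaks (34.1%, 30.7 to 37.6), against 36.4% of the shNC peaks of genes in both lists, a difference of -2.29 points (-5.67 to 1.24), and 36.9% in the reverse set (-2.84 points, -7.35 to 1.73). Per gene, with only its highest peak counted, the shares were 35.2% in members and 41.7% in genes of both lists (-6.59 points, -10.4 to -2.56). The reverse set had 36.3% (-1.16 points, -6.21 to 3.94). The highest peak was picked from 1.25 peaks per gene in members and from 2.11 in genes of both lists. Among genes with 1 peak the difference from genes in both lists was -4.83 points (-9.23 to -0.21). Over peaks with a mean of 2 or above it was 0.88 points (-3.65 to 5.57). Peaks with 2 or more GGACU were 6.39% of member peaks and 8.50% of peaks of genes in both lists (-2.11 points, -3.70 to -0.09), and 7.08% in the reverse set (-0.69 points, -3.04 to 1.77). Within the member peaks the motif went with the score. It was in 25.5% of those with a mean below 2, in 39.1% of those from 2 to 3 and in 41.5% of those at 3 or above, against 30.3%, 34.7% and 42.8% in genes of both lists, with intervals of the difference that all hold 0. The motif was least frequent in 5′UTR peaks (25.9%) and most frequent at stop codons (37.6%). In 3′UTR peaks it was found in 41 of 123 (33.3%), against 45.5% in the reverse set (-12.1 points, -22.6 to -0.95) and 40.6% in genes of both lists (-7.32 points, -15.2 to 1.54). Of 12 such differences, 2 for each region, this was the single one whose interval left out 0.

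The most motifs in 1 peak, 4, were found in EPHB3 and ARHGAP30. EPHB3, a receptor of ephrins, had 4.20 and 4.32 in this peak, which spans the stop codon and holds the run of 3 copies shown above. ARHGAP30, a GTPase-activating protein, had 2.25 and 1.89 in its CDS. TMC8, a channel-like protein of the endoplasmic reticulum, had 3 motifs in a 3′UTR peak with 4.22 and 3.58, FAT2, an atypical cadherin, 3 in a CDS peak with 3.73 and 3.77, and CCDC120, a centriole protein, 3 at its stop codon with 3.62 and 3.24. KDR and PURA, with the highest scores of all, had no GGACU in any peak.

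Noncoding transcripts made up 60 of the 603 members (9.95%), against 3.49% of genes in both lists (6.46 points, 4.28 to 9.14) and 11.0% of the reverse set. By RefSeq type 37 members were lncRNAs (6.14%, against 2.19% in both lists) and 22 were transcribed pseudogenes (3.65%, against 1.29%). The highest noncoding peaks were in pseudogenes. FAM45BP had 4.31 and 4.32, SEPT7P2, a copy of a septin gene, 3.75 and 4.57, CCDC144B 4.20 and 3.57, and LOC729603 the discordant pair given above. Reads of such copies can match the parent gene as well. The authors' alignment kept a single place per read. Which copy received a shared read is not known, so these values are uncertain. STK4-AS1, an antisense RNA that starts head to head with STK4, had 3.60 and 3.52. The LINC and LOC genes gave 27 members of 111 in the shNC list (24.3%), and 45 of the 129 in the shFTO list were in that list only (34.9%). For antisense and host transcripts the counts were 12 of 74 (16.2%) for the members and 20 of 82 (24.4%) for the reverse set. The backgrounds over all genes were 6.49% for shNC and 8.25% for shFTO.

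Gene families and lists are given as counts beside these backgrounds and without a test, since the rule itself used the contrast. Of 19 receptor tyrosine kinases in the shNC list 5 were members (26.3%), and none of the 14 in the shFTO list was found there alone. Their median highest score was 4.22, against 2.19 over all members. Beside KDR and EPHB3 these were EPHA3, ERBB3 and FGFR4. EPHA3, another ephrin receptor, had peaks at its start codon (3.26 and 2.65), in the adjoining CDS (4.14 and 4.30) and at the stop codon (2.0 and 2.49). ERBB3, a receptor of neuregulin, had a CDS peak with 3.71 and 3.91 and a 3′UTR peak with 1.95 and 1.81. FGFR4 had a single peak in its 5′UTR, with 2.47 and 2.17. Related receptors stood in both lists, such as EPHA4 with highest means of 3.86 in shFTO and 3.82 in shNC and EPHA2 with 3.10 in shFTO and 2.96 in shNC.

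Genes of DNA replication, a list drawn up after the members had been seen, gave 6 members of 55 in the shNC list (10.9%). None of the 49 in the shFTO list was in that list only. MCM10, which helps to open replication origins, had 4.67 and 4.25 at its stop codon. GINS1, a subunit of the replicative helicase, had 4.01 and 4.52 at its start codon, while GINS2, GINS3 and GINS4 were in both lists with highest means between 1.40 and 2.86. TICRR, which loads the helicase cofactor CDC45, had 4 peaks with means from 2.47 to 3.0. POLA1, the catalytic subunit of DNA polymerase alpha, had 2.13 and 2.86, and WDHD1, which ties this polymerase to the helicase, 2.08 and 2.42, both at the start codon. CDC45 itself was near the threshold with 0.93 and 1.19.

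Homologous recombination and the Fanconi anaemia pathway, also listed after the members had been seen, gave 11 members of 41 (26.8%). Again none of 30 was in the shFTO list only. MMS22L and its partner TONSL were both among them. TONSL had 2.35 and 1.52 in its highest peak, in the CDS. BRCA1, which promotes resection of broken ends, had 2.51 and 2.34 at its stop codon. SLX4, a scaffold of nucleases, had 3.32 and 2.42, and RAD52, a protein that anneals single strands, 3.25 and 2.16 in the 3′UTR peak with the pair of motifs shown above. In the Fanconi pathway FANCC had 3.23 and 2.62, FANCD2 1.89 and 2.76, and FANCG 1.97 and 2.29. XRCC2, another recombination protein, had 2.03 and 2.0. All 11 had scores above 1 in both replicates in their highest peak. This is common by the calling threshold, since 566 of the 603 members had a peak with both scores at 1 or above.

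Of 39 genes of the kinetochore, the spindle checkpoint and separase in the shNC list 8 were members (20.5%), and 2 of 33 in the shFTO list were found there alone (6.06%). CENPI, of the inner kinetochore, had 3.40 and 3.54, CASC5 (KNL1), the platform of the checkpoint, 3.61 and 3.10, SKA1 2.49 and 3.11, and SPC25 of the NDC80 complex 2.58 and 2.77. ESPL1, the separase that cuts cohesin, had 2.77 and 2.02. The kinases TTK and AURKB had 1.91 and 2.19, and 1.87 and 1.80, both at the start codon. Kinesins and dynein heavy chains gave 4 of 21 (19.0%), with 2 of 19 in the shFTO list only (10.5%). Among these KIF18A, which aligns chromosomes, had 2.22 and 2.82 in the CDS peak with the pair of motifs, KIF11, which pushes spindle poles apart, 2.15 and 2.01, KIF22 1.58 and 1.04, and KIF24, a regulator of cilia, 3.79 and 3.66. The replication, recombination and kinetochore lists were drawn up after the members had been seen, so their counts describe the choice.

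HOX genes gave 4 members of 14 (28.6%), with 1 of 11 in the shFTO list only. HOXA3 had 3.77 and 3.39 in its CDS, while HOXB5 (2.91 and 3.58), HOXC4 (1.82 and 1.61) and HOXA5 (1.36 and 1.90) had their peak at the start codon. Among G protein-coupled receptors of the GPR and ADGR names 5 of 24 were members (20.8%) and 4 of 23 were in the shFTO list only (17.4%). The 5 members were led by ADGRB1, an adhesion receptor for apoptotic cells, with 3.22 and 3.13. Integrins and collagens gave 3 of 24 (12.5%), with 4 of 25 in the shFTO list only (16.0%), and the median highest score of the 3 was 4.14. ITGA10, the integrin alpha chain of cartilage cells, had 4.59 and 4.16 at its stop codon, and COL9A1, a cartilage collagen, 3.62 and 4.65 in the CDS peak shown above. RAB, ARHGAP and ARHGEF genes gave 6 of 78 (7.69%), near the background, with 2 of 74 in the shFTO list only (2.70%). ARHGEF5 had 4.26 and 3.63 and ARHGEF26 4.55 and 3.03, both in the CDS.

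Shares of the other large families lay on both sides of the background. Chromosome open reading frames gave 16 of 143 (11.2%), with 21 of 148 in the shFTO list only (14.2%), and FAM genes 9 of 120 (7.5%), with 8 of 119 in the shFTO list only (6.72%). Zinc finger ZNF genes gave 10 of 265 (3.77%), whereas 28 of 283 in the shFTO list were found there only (9.89%). ZNF248 had 4.67 and 3.32 in its 3′UTR and ZNF850 4.02 and 3.60 in its CDS, and the other 8 had highest means of 2.58 or less. Solute carriers gave 6 of 148 (4.05%), with 12 of 154 in the shFTO list only (7.79%), and the median highest score of the 6 was 3.14. SLC19A3, a thiamine transporter, had 4.74 and 3.56 and SLC16A10, a transporter of aromatic amino acids, 3.39 and 3.05. TMEM genes gave 4 of 128 (3.13%), with 13 of 137 in the shFTO list only (9.49%). Ribosomal proteins of the mitochondria gave 3 of 57 (5.26%), with 3 of 57 in the shFTO list only (5.26%), and the 3 members had highest means from 1.04 to 1.15, close to the threshold. Those of the cytosol gave 2 of 24 (8.33%), with 5 of 27 in the shFTO list only (18.5%). The members were RPLP0 with 1.16 and 1.45 and RPS20 with 1.0 and 0.99.

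No m6A writer, eraser or reader was among the members, although 23 of 24 were in the shNC list. The same held for the 14 listed genes that the study names, for 23 immediate early genes, 25 MAP kinases and kinase kinases, 20 SOX and FOX genes and 13 Wnt pathway genes. With a background of 6.49%, the lack of members in sets this small is no result about them. In the shFTO list only were 4 of 29 MAP kinases and kinase kinases, 3 of 16 Wnt pathway genes and 2 of 25 immediate early genes. So were 1 of 21 SOX and FOX genes and 1 of 15 genes that the study names, and no m6A gene. The shFTO background was 8.25%. The 7 melanocyte markers in the shNC list, MITF and TYR among them, were in the shFTO list as well. Keratinocyte markers were in neither list, and the single listed leukocyte and fibroblast markers of shNC were in both. Of the 2 leukocyte markers in the shFTO list, 1 was found there only.

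**Figure D5:**
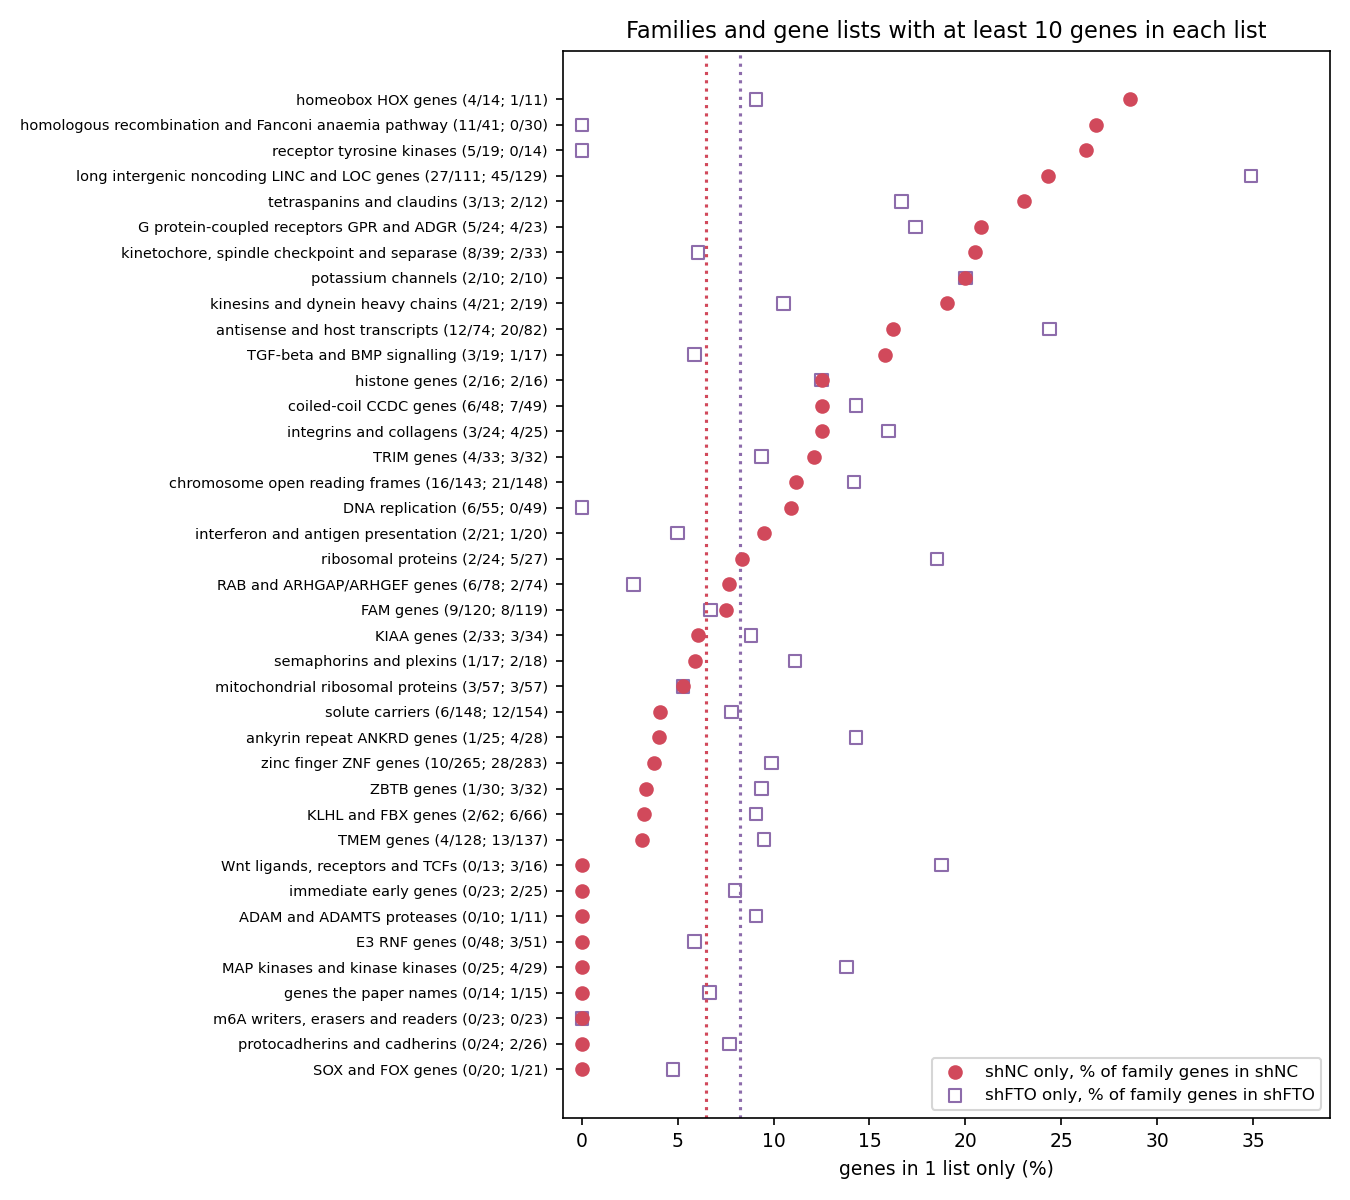
Share of family or list genes (%) that are in the shNC list only (filled circles, out of those in the shNC list) and in the shFTO list only (open squares, out of those in the shFTO list), for families with at least 10 genes in each list, with both counts beside each name and dotted lines at 6.49% (shNC) and 8.25% (shFTO). Receptor tyrosine kinases, DNA replication and recombination genes have filled circles above the line and open squares at 0, and ZNF genes lie left of the line for shNC. The replication, recombination and kinetochore lists were drawn up after the members had been seen, so their place describes the choice.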

How the data were processed

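m6A-seq of Mel624 cells with shFTO or shNC was analysed. The authors trimmed reads with cutadapt and aligned them to hg38 with TopHat2 2.0.14, keeping a single alignment per read. They moved the reads to the longest RefSeq isoform and compared IP and input in sliding windows with a Fisher exact test. Windows with few reads relative to the top window of the mRNA were excluded. Those that passed a limit on the false discovery rate and had a log2 score of at least 1 were kept and merged. The deposited values are log2 enrichment scores per replicate, normalised to the median window of each mRNA and not to library size. Peak starts and ends, regions and motifs were taken as deposited. The rule that joined the replicates into 1 list was not given in the sources used here. Without read counts in the lists the depth is unknown.

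Members were found by RefSeq identifier. Shares carry exact Clopper-Pearson 95% intervals, differences Newcombe 95% intervals, both checked on simulated independent counts. Peaks of 1 gene share an mRNA, so this check does not bear on the counts over every peak. Families were 32 symbol patterns and 21 gene lists, to which 3 were added after the values were seen. The members and all lists were chosen with earlier results of these data known. The text names the 12 members with the highest mean score, those with the most peaks or motifs, the 5 highest noncoding members, the 5 peaks with the largest replicate difference, the 3 with the lowest highest score, and up to 4 members per family, to which further members of the small lists were added after their values were seen. Of 603 members 599 were found in a RefSeq gene table of GRCh38. Sites were placed on GENCODE 44 transcripts. Alternatives were 1 peak per gene, 1-peak genes, joined peaks, score floors and single replicates. Python 3.11.15, pandas 2.3.3, numpy 2.4.6, scipy 1.17.1 and matplotlib 3.10.9 were used.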

Additional observations from a re-analysis of the deposited data

How the results depend on the processing

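No paired analysis was possible because the members have no shFTO value. Of 42 alternatives 23 kept the sign of the result and its place relative to counting error, or moved it by less than the replicate spread. The sign was reversed in 11. In 3 the interval came to hold 0, in 3 it came to leave out 0, and 2 values moved further. The number of members was 603 by gene symbol as well, 566 with both scores at 1 or above and 696 with a mean of 1.5 or above in either list, but 352 with a shNC mean of 2 or above. The noncoding excess kept its sign, with intervals that left out 0, in every alternative run. The excess of 1-peak genes kept its sign too, but the number of peaks bears on the rule, so this excess is a description only. Differences below are members minus genes in both lists, in percentage points. With 1 peak per gene the CDS difference was 0.74 (-2.77 to 4.52), the stop codon difference -5.03 (-8.26 to -1.45) and the GGACU difference -6.59 (-10.4 to -2.56). Among 1-peak genes the start codon difference was -6.87, CDS 2.53, stop codon -4.75, 3′UTR 1.91 and GGACU -4.83. With a mean of 2 or above the 5′UTR difference was -0.26, start codon -2.39, CDS -0.17, 3′UTR -3.91 and GGACU 0.88. With abutting peaks joined the start codon difference was -0.53, CDS -1.43 and GGACU -5.86, and within 50 nt of the peak centre the GGACU difference was 0.056. The difference in median log2 score was -0.37, between -0.39 and -0.37 with 1 shNC replicate left out, and -0.89 with 1 peak per gene. For the 1-peak genes and the joined peaks the smaller set of peaks is the alternative's own construction, and otherwise the cause was not tested. With no read counts, depth sets a limit that could not be measured, and a gene missing from the shFTO list is not shown to lack m6A.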
